A study of Mus musculus with 24 samples.

Results

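The genes described here are 41 genes of the DNA replication machinery, all 41 of which were among the 25229 gene symbols of the count table and among the 12941 genes abundant enough to test. They were chosen by name for their function: the MCM helicase and the factors that load and activate it, the replicative polymerases, the sliding clamp with its loader, the single-strand binding proteins, 2 enzymes of Okazaki fragment maturation and 3 enzymes of deoxynucleotide supply. RNA was sequenced from ID8 P53 KO cells, a mouse ovarian cancer cell line in which the gene for p53 is inactivated, so all groups, the controls included, carried that genotype. The cells received for 6 days either the vehicle DMSO, cisplatin at 750 nM (the concentration in the labels, while the study's methods name a higher one for these cells), AU15330 at 2.5 uM, or cisplatin and AU15330 together at the same concentrations (the combination). Each of the 4 groups held 6 libraries, numbered 1 to 6 in the labels. Cisplatin is a platinum drug that crosslinks DNA. AU15330 is a PROTAC, a compound that marks the SWI/SNF chromatin remodelling ATPase SMARCA4 and its paralog SMARCA2 for degradation. All libraries came from 1 cell line, and the labels do not say that replicates were separate cultures, so the p-values measure the spread between these libraries, which may be technical.

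Before a cell copies its DNA, the origin recognition complex, Cdc6 and Cdt1 load rings of MCM2 to MCM7 onto origins in a step called licensing, and geminin binds Cdt1 to stop a second round. In S phase, Cdc45 and the GINS complex join the rings to make the active helicase, polymerase alpha with primase starts each strand, and polymerases delta and epsilon extend them on the PCNA clamp that replication factor C loads. Fen1 and Lig1 join the Okazaki fragments, and ribonucleotide reductase and thymidylate synthase supply the building blocks. Many of these genes are known targets of the E2F transcription factors and are transcribed around the start of S phase, so they are widely read as marks of cycling cells.

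Between 17592588 and 25260009 reads were counted on genes per library, and levels are given as CPM, counts scaled to a common library size with TMM factors, so a value is a share of the measured mRNA and not an amount per cell. Of 9 markers of ovarian surface epithelium and mesothelium, none was at 0 in all libraries of a group. Their summed level was 3791 to 5748 CPM in DMSO, 1258 to 1383 with AU15330, 4515 to 5213 with cisplatin and 1402 to 1586 with the combination. Wt1, 1 of the 9, was at 490.2 CPM or more in every library. Markers of immune cells (5 genes) summed to at most 0.495 CPM and those of adipocytes (2, both at 0 in all DMSO libraries) to at most 0.227 in any library. Markers of endothelium (3) were low but moved with the treatments, with sums of 2.87 to 4.28 CPM in DMSO, 0.261 to 0.715 with AU15330, 8.24 to 12.5 with cisplatin and 0.483 to 1.102 with the combination. Those of muscle (2) summed to 5.06 to 8.35, 0.411 to 0.6797, 6.36 to 11.4 and 1.18 to 1.64 CPM in the same order. Trp53 mRNA was still counted at 18.7 to 42.9 CPM over all libraries, and since the deleted stretch is not given in the sources used here, its level does not check the genotype. The 3 proliferation markers Mki67, Top2a and Ccnb1 moved with the treatments. Their summed level was 111 to 227 CPM in DMSO, 220.0 to 497 with AU15330, 768 to 1010.5 with cisplatin and 1018 to 1158 with the combination, and the part of these and of the mesothelial, endothelial and muscle markers in the results was not tested.

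The libraries numbered 1 stood apart from the other 5 of their group for the replication genes. Relative to the group mean on the log2 scale, the median replication gene lay 0.38 higher in replicate 1 of DMSO, 0.44 higher in that of AU15330, 0.36 higher in that of cisplatin and 0.24 higher in that of the combination, while the median over all tested genes lay between -0.03 and 0.02. Replicate 1 was the highest of the 6 libraries for 27 of the 41 genes in DMSO, 39 with AU15330, 38 with cisplatin and 36 with the combination. Mki67 shared this pattern with AU15330, where replicate 1 was highest at 163 CPM and the others had 65.5 to 122, but not in the other groups. Its replicate 1 had 42.2 CPM in DMSO (30.2 to 83.2 in the group), 338 with cisplatin (249.9 to 375) and, as the lowest of 6, 272 with the combination (up to 379). Counts are therefore given with and without the libraries numbered 1.

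Summed over the 41 genes, the level rose in the order DMSO, AU15330, cisplatin and combination, and no library of a group overlapped with another group. The sum was 1306 to 1680 CPM (median 1433) in DMSO, 1836 to 2669 (median 1896) with AU15330, 2979.96 to 4054 (median 3177) with cisplatin and 4088 to 5239 (median 4343) with the combination. The means were 1442 ± 134 CPM (SD, n = 6), 2042 ± 323, 3288 ± 391 and 4433 ± 415 in that order. Without the libraries numbered 1 the sums ran from 1306 to 1471 CPM in DMSO, 1836 to 2108 with AU15330, 2979.96 to 3284 with cisplatin and 4088 to 4411 with the combination, still without overlap. The combination had the highest of the 4 group means for 36 of the 41 genes and cisplatin alone for the other 5 (Orc6, Gmnn, Gins1, Lig1 and Rrm1). DMSO had the lowest mean for 33 genes, AU15330 alone for 7 (Orc2, Orc6, Gmnn, Rfc4, Pold3, Rpa3 and Rrm1) and cisplatin alone for 1 (Pold2). In 28 genes the means followed the same order as the sum. These orders were counted over the 41 genes only, so no share over all tested genes stands beside them. In these bulk libraries, more cells that express a gene and more of its mRNA in each cell cannot be told apart.

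**Figure D1:**
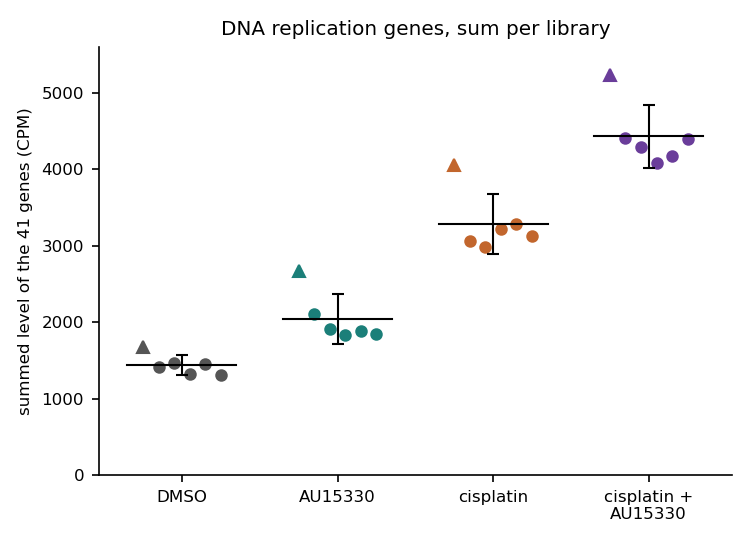
Summed level of the 41 replication genes in CPM (y axis, linear, from 0) in each of the 24 libraries, by treatment. Triangles are the libraries numbered 1, circles the others, and lines with bars give the mean and SD of 6 libraries; the lowest combination library, at 4088 CPM, lies just above the highest cisplatin library, at 4054 CPM.

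Exposure to cisplatin alone was followed by higher mRNA of most of the machinery. The paper reports senescence, a stable exit from the cell cycle, and reduced proliferation of these cells after cisplatin. Growth was not measured in these libraries. Against DMSO, 37 of the 41 genes were higher, 0 were lower and 4 (Orc2, Pold2, Pold3 and Rpa3) did not pass the test at an adjusted p of 0.05 (edgeR quasi-likelihood F test, adjusted over all 12941 tested genes by Benjamini-Hochberg). At an unadjusted p under 0.05, and with DESeq2, the number of lower genes was also 0. Over all tested genes 51.7% were called in this comparison, 26% as higher and 25.7% as lower. The median log2 fold change of the 41 genes was 1.32, or 2.50-fold, against a median of -0.00413 over all tested genes, with a range from -0.13 for Pold2 to 3.21 for Orc1. In 27 of them the level was more than 2-fold higher and in 8 more than 4-fold. Of all tested genes, 11.1% were called higher by more than 2-fold. Without the libraries numbered 1, 36 genes were higher and 0 lower, Rfc1 being the gene that lost its call. Scaled by total counts in place of TMM, the calls over all tested genes moved from 3360 higher and 3329 lower to 3977 and 2529, with all 37 calls of the 41 genes kept.

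With AU15330 alone most of the genes were higher and a few were lower. Against DMSO, 30 of the 41 genes were higher and 4 were lower (Orc2, Orc6, Gmnn and Rrm1), in a comparison in which 73.4% of all tested genes were called, 36.2% as higher and 37.2% as lower. The median log2 fold change was 0.50 against -0.00301 over all tested genes. In 15 genes the level was more than 2-fold higher, while 13.4% of all tested genes were called higher by more than 2-fold. Gins1, Rfc4, Pold1, Pold2, Pold3, Rpa1 and Rpa3 did not pass the test. With scaling by total counts the median over all tested genes shifted to 0.13 and that of the 41 genes to 0.63, and 2 of the 4 falls (Gmnn and Rrm1) were still called. With the libraries numbered 1 left out, 30 genes were higher and 5 lower: Cdt1 lost its call, Rpa1 gained one as higher and Rpa3 gained one as lower. Without the libraries numbered 3, only 1 gene, Rrm1, was called lower. The comparisons of cisplatin and of AU15330 with DMSO share the 6 DMSO libraries.

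Most of the genes, though not all, were higher still where AU15330 was added to cisplatin. Against cisplatin alone, 30 of the 41 genes were higher with the combination and 1, Rrm1, was lower, where 68.1% of all tested genes were called, 35.4% as higher and 32.7% as lower. The median log2 fold change was 0.58 against 0.04 over all tested genes. Only Mcm5 was more than 2-fold higher, while 7.81% of all tested genes were called higher by more than 2-fold. Mcm6, Mcm7, Orc6, Gmnn, Gins1, Rfc4, Rfc5, Pold1, Rpa3 and Lig1 did not pass the test. Leaving out the libraries numbered 1 gave 31 genes that were higher, Rfc5 being the added call, and 1 was lower.

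The combination was also compared with AU15330 alone, the contrast that asks what cisplatin adds, and with DMSO. Against AU15330 alone, all 41 genes were higher, where 41.7% of all tested genes were called, 22.2% as higher and 19.5% as lower. Against AU15330 and against DMSO, 0 genes were lower at an unadjusted p under 0.05 or with DESeq2. The median log2 fold change against AU15330 was 1.17, and it ranged from 0.23 for Rfc1 to 2.51 for Orc1. Against DMSO, 40 of the 41 genes were higher and 0 lower, Rpa3 being the exception, where 73.3% of all tested genes were called, 36.8% as higher and 36.5% as lower. The median log2 fold change was 1.70, and 31 genes were more than 2-fold and 16 more than 4-fold higher. Of all tested genes, 14.3% were called higher by more than 2-fold. The highest values were 4.00 for Mcm10 and 3.97 for Mcm5. Without the libraries numbered 1, 41 genes were called higher against AU15330 and 39 against DMSO, where Pold3 lost its call.

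**Figure D2:**
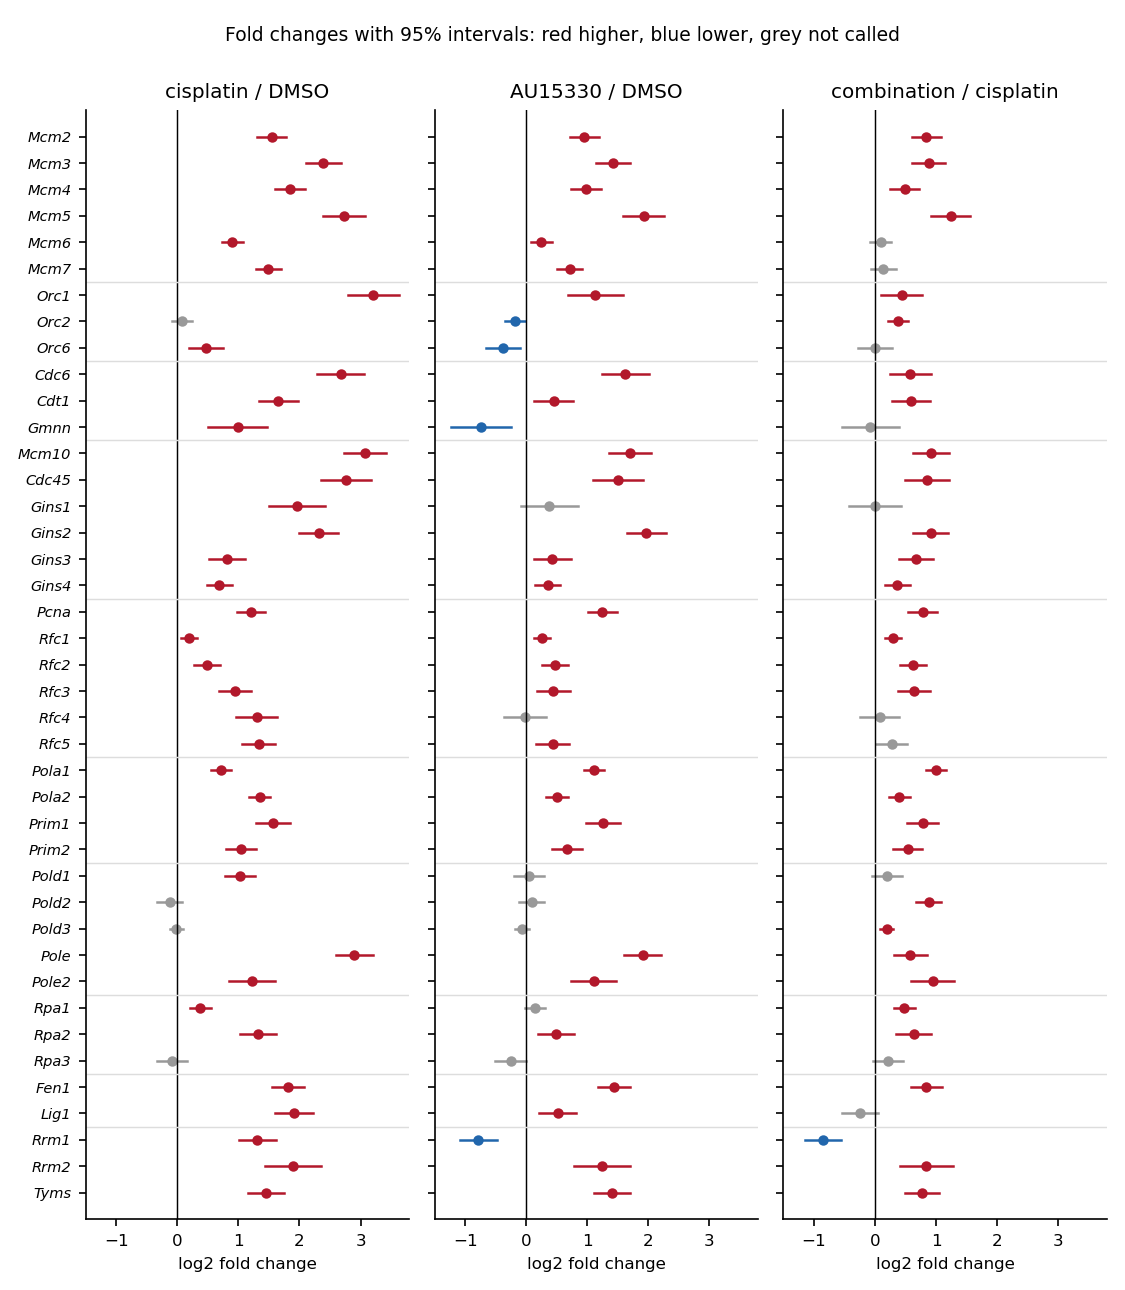
Log2 fold change of each of the 41 genes with its 95% interval (x axis) for cisplatin against DMSO, AU15330 against DMSO and the combination against cisplatin, with the genes ordered by role from the MCM helicase at the top to nucleotide supply at the bottom. Red marks the 37, 30 and 30 genes called higher, blue the 0, 4 and 1 called lower and grey the rest; Rrm1 is the gene that is blue in both comparisons that add AU15330.

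Within the MCM2 to MCM7 ring, the replicative helicase whose 6 subunits are needed in equal number, all 6 genes were higher with cisplatin, all 6 with AU15330 and 4 with the combination against cisplatin. Mcm5 showed the largest changes of the 6. It measured 15.99 to 29.2 CPM (median 20.5) in DMSO, 60.2 to 123 (median 68.3) with AU15330, 110.2 to 185 (median 135) with cisplatin and 291 to 376 (median 321) with the combination. The AU15330 and cisplatin libraries overlapped, DMSO lay below all and the combination above all. The log2 fold change of Mcm5 was 2.73 ± 0.169 (SE) with cisplatin, 1.92 ± 0.165 with AU15330 and 1.24 ± 0.157 for the combination against cisplatin (adjusted p = 7.22e-13, 7.75e-11 and 1.2e-07). Mcm6 moved least. It measured 139.5 to 177 CPM (median 163) in DMSO, 166 to 237 (median 181) with AU15330, 260.2 to 322 (median 304) with cisplatin and 298 to 369 (median 309) with the combination. Its libraries overlapped between DMSO and AU15330 and between cisplatin and the combination. Mcm6 rose 1.87-fold with cisplatin (log2 fold change 0.90 ± 0.0846, adjusted p = 1.98e-09) and 1.19-fold with AU15330 (adjusted p = 0.00994), and its difference between the combination and cisplatin had an interval of -0.08 to 0.26. Mcm2, Mcm3, Mcm4 and Mcm7 rose 2.92-, 5.24-, 3.59- and 2.81-fold with cisplatin and 1.94-, 2.69-, 1.97- and 1.64-fold with AU15330. The 2 subunits with no call for the combination against cisplatin were Mcm6 and Mcm7, the latter with a log2 fold change of 0.14 ± 0.0993 (adjusted p = 0.222). Per kilobase of mRNA, the mean levels of the 6 subunits ran from 6.14 CPM (Mcm5) to 54.8 (Mcm6) in DMSO and from 59.1 (Mcm4) to 109 (Mcm6) in the combination.

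The origin recognition genes split. Orc1, the largest ATPase subunit, whose protein is known to vary through the cell cycle, was barely expressed in DMSO. It measured 0.627 to 1.42 CPM (median 0.9101) in DMSO, 1.57 to 3.56 (median 1.74) with AU15330, 7.74 to 11.3 (median 8.32) with cisplatin and 10.7 to 14.2 (median 11.97) with the combination, which rests on counts as low as 13 in a library. DMSO, AU15330 and cisplatin libraries did not overlap, whereas cisplatin and the combination did. Orc1 rose 9.25-fold with cisplatin, the largest rise of the 41 genes in that comparison (log2 fold change 3.21 ± 0.202, adjusted p = 9.79e-13). With AU15330 the log2 fold change was 1.13 ± 0.219 (adjusted p = 5.15e-05) and for the combination against cisplatin 0.43 ± 0.161 (adjusted p = 0.0195), the latter lost without the libraries numbered 2, 3 or 6 (adjusted p up to 0.0564). Orc2, a core subunit, measured 33.2 to 48.3 CPM (median 44.1) in DMSO, 33.5 to 39.97 (median 38.7) with AU15330, 40.9 to 52.3 (median 46.1) with cisplatin and 52.4 to 62.8 (median 58.95) with the combination. Its lowest combination library lay just above the highest cisplatin library, and the other groups overlapped with a neighbour. Orc2 had a log2 fold change of 0.08 ± 0.0798 with cisplatin (adjusted p = 0.427), fell by 0.18 on the log2 scale with AU15330 (SE 0.0801, adjusted p = 0.0433) and rose by 0.37 ± 0.0794 for the combination against cisplatin (adjusted p = 0.000183). The fall with AU15330 lost its call in 8 of 12 alternative fits, with adjusted p up to 0.573. Orc6, the smallest subunit, measured 36.9 to 62.8 CPM (median 39.6) in DMSO, 30.1 to 42.6 (median 31.3) with AU15330, 49.04 to 78.2 (median 55.6) with cisplatin and 51.6 to 80.8 (median 54.5) with the combination. All AU15330 libraries of Orc6 lay below all libraries that received cisplatin. Orc6 rose 1.38-fold with cisplatin (adjusted p = 0.00531), fell by 0.38 on the log2 scale with AU15330 (adjusted p = 0.015), and showed no call for the combination against cisplatin (log2 fold change -0.000928, interval -0.28 to 0.28). The fall of Orc6 was lost without the libraries numbered 3 (log2 fold change -0.34, adjusted p = 0.0682) and with scaling by total counts (-0.25, adjusted p = 0.107).

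Of the licensing genes, Cdc6 and Cdt1, which load the helicase, rose in all 3 comparisons, and Gmnn, which encodes the Cdt1 inhibitor geminin, did not. Cdc6 measured 3.12 to 7.86 CPM (median 4.098) in DMSO, 12.1 to 22.6 (median 12.4) with AU15330, 24.6 to 38.4 (median 30.03) with cisplatin and 41.3 to 54.1 (median 45.04) with the combination. No library of a group overlapped with another group. Cdc6 rose 6.39-fold with cisplatin (log2 fold change 2.68 ± 0.187, adjusted p = 6.71e-12), 3.08-fold with AU15330 (adjusted p = 1.85e-08) and 1.49-fold for the combination against cisplatin (adjusted p = 0.00319). Cdt1 measured 19.8 to 34.3 CPM (median 23.03) in DMSO, 26.6 to 51.01 (median 30.6) with AU15330, 61.8 to 97.3 (median 76.8) with cisplatin and 101 to 150.1 (median 110.2) with the combination. Its DMSO and AU15330 libraries overlapped, and the combination lay above all others. Its log2 fold change was 1.65 ± 0.156 with cisplatin, 0.45 ± 0.155 with AU15330 and 0.59 ± 0.1497 for the combination against cisplatin (adjusted p = 2.22e-09, 0.0108 and 0.00114). The middle value was lost without the libraries numbered 1 (0.22, adjusted p = 0.110). Gmnn measured 14.7 to 43.1 CPM (median 29.7) in DMSO, 12.2 to 29.2 (median 14.3) with AU15330, 43.5 to 72.2 (median 53.2) with cisplatin and 44.6 to 77.9 (median 49.6) with the combination. Every library with cisplatin lay above every library without it, and AU15330 and DMSO overlapped. Gmnn rose 1.98-fold with cisplatin (log2 fold change 0.99 ± 0.233, adjusted p = 0.000941) and fell by 0.74 on the log2 scale with AU15330 (SE 0.238, adjusted p = 0.00704). Without the libraries numbered 3 the fall was 0.60 on the log2 scale and no longer called (adjusted p = 0.0624). For the combination against cisplatin the log2 fold change of Gmnn was -0.08 ± 0.228 (adjusted p = 0.779).

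The factors that turn the loaded ring into the active helicase held some of the largest changes. All 6 (Mcm10, Cdc45 and Gins1 to Gins4) were higher with cisplatin, with a median log2 fold change of 2.14, 5 with AU15330 and 5 with the combination against cisplatin. Mcm10, which stabilises and activates the helicase, measured 3.897 to 5.89 CPM (median 4.698) in DMSO, 11.4 to 23.5 (median 13.6) with AU15330, 31.5 to 51.3 (median 41.5) with cisplatin and 64.00 to 92.8 (median 76.3) with the combination. No group overlapped with another. Mcm10 rose 8.46-fold with cisplatin (log2 fold change 3.08 ± 0.168, adjusted p = 5.48e-14), 3.26-fold with AU15330 (adjusted p = 9.58e-10) and 1.89-fold for the combination against cisplatin (adjusted p = 3.91e-06), which placed it 15.99-fold above DMSO in the combination. Cdc45 measured 3.39 to 6.06 CPM (median 4.34) in DMSO, 9.63 to 22.5 (median 9.76) with AU15330, 24.5 to 41.4 (median 28.1) with cisplatin and 46.4 to 64.5 (median 54.1) with the combination, also without overlap, and rose 6.77-fold with cisplatin and 2.84-fold with AU15330. The 4 GINS genes, which encode a complex of 4 subunits, did not move alike. Gins2 rose 4.98-fold with cisplatin and 3.92-fold with AU15330, whereas Gins1 rose 3.88-fold with cisplatin and did not pass the test with AU15330 (log2 fold change 0.38 ± 0.227, adjusted p = 0.138) or for the combination against cisplatin (interval -0.43 to 0.42). Alternative fits called Gins1 higher with AU15330 in 2 of 12 (adjusted p of 0.0139 and 0.0486). Gins3 rose 1.76-fold with cisplatin and 1.34-fold with AU15330, a call lost in 2 of 12 alternative fits (adjusted p up to 0.0865). Gins4, the smallest change of the 6 with cisplatin, measured 22.2 to 32.97 CPM (median 25.4) in DMSO, 32.4 to 37.7 (median 32.9) with AU15330, 35.9 to 57.4 (median 39.7) with cisplatin and 50.5 to 61.6 (median 54.3) with the combination. Its neighbouring groups overlapped in each case. Gins4 rose 1.61-fold with cisplatin (log2 fold change 0.69 ± 0.101, adjusted p = 2.96e-06), 1.28-fold with AU15330 (adjusted p = 0.00297) and 1.29-fold for the combination against cisplatin (adjusted p = 0.00202). The exons of Gins2 overlap those of Gse1 on the other strand over 2758 of 4097 bases, and the counting's use of strand is not given in the sources used here, so reads of the 2 genes may not be separated.

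Pcna, the sliding clamp, measured 67.9 to 87.5 CPM (median 70.5) in DMSO, 159 to 217 (median 164) with AU15330, 142 to 248 (median 157) with cisplatin and 263 to 354 (median 278) with the combination. DMSO lay below and the combination above all other libraries, and AU15330 and cisplatin overlapped. Pcna rose 2.31-fold with cisplatin, 2.37-fold with AU15330 and 1.72-fold for the combination against cisplatin (adjusted p = 2.47e-09, 3.09e-10 and 1.03e-06). The 5 subunits of replication factor C, which opens the clamp and places it on DNA, were all higher with cisplatin. Rfc5, with the largest change among them with cisplatin, measured 9.76 to 16.02 CPM (median 11.9) in DMSO, 14.1 to 25.3 (median 14.3) with AU15330, 28.04 to 37.3 (median 29.1) with cisplatin and 34.5 to 43.5 (median 36.2) with the combination. Libraries with and without cisplatin did not overlap. Rfc5 rose 2.52-fold with cisplatin (log2 fold change 1.33 ± 0.131, adjusted p = 4.28e-09) and 1.35-fold with AU15330 (adjusted p = 0.00477), and 0.27 ± 0.125 on the log2 scale for the combination against cisplatin did not pass the test (adjusted p = 0.0551). That last difference was called as higher in 4 of 12 alternative fits (adjusted p of 0.00266 to 0.0205). Rfc1, the large subunit, measured 105 to 144 CPM (median 115) in DMSO, 134 to 154 (median 143) with AU15330, 126 to 146 (median 137) with cisplatin and 162 to 171 (median 167) with the combination. Only the combination was set apart from the other groups. Rfc1 rose 1.14-fold with cisplatin (log2 fold change 0.19 ± 0.0649, adjusted p = 0.0169), a call lost in 5 of 12 alternative fits (adjusted p up to 0.132), 1.19-fold with AU15330 (adjusted p = 0.000992) and 1.23-fold for the combination against cisplatin (adjusted p = 0.000258). Rfc2 and Rfc3 rose in all 3 comparisons, by 1.404- and 1.92-fold with cisplatin. Rfc4 rose 2.46-fold with cisplatin, and its log2 fold changes of -0.02 ± 0.167 with AU15330 and 0.08 ± 0.155 for the combination against cisplatin did not pass the test (adjusted p = 0.902 and 0.663).

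The 4 subunits of polymerase alpha-primase, which lays down the RNA-DNA primer of each new strand, were higher in all 3 comparisons. Prim1, the catalytic primase subunit, measured 6.09 to 8.56 CPM (median 7.43) in DMSO, 14.4 to 23.1 (median 16.3) with AU15330, 16.9 to 30.9 (median 21.1) with cisplatin and 33.5 to 43.8 (median 37.1) with the combination. AU15330 and cisplatin overlapped, DMSO lay below and the combination above. Prim1 rose 2.95-fold with cisplatin (log2 fold change 1.56 ± 0.136, adjusted p = 4.77e-10), 2.396-fold with AU15330 (adjusted p = 5.82e-09) and 1.71-fold for the combination against cisplatin (adjusted p = 5.91e-06). Pola1, the catalytic polymerase subunit, departed from the usual order of the groups. It measured 21.6 to 24.3 CPM (median 23.5) in DMSO, 46.03 to 59.9 (median 49.4) with AU15330, 29.4 to 43.8 (median 38.6) with cisplatin and 70.7 to 81.2 (median 75.8) with the combination. No group overlapped with another, and each AU15330 library lay above each cisplatin library. Pola1 rose 1.63-fold with cisplatin (log2 fold change 0.71 ± 0.0805, adjusted p = 5.34e-08), 2.17-fold with AU15330 (log2 fold change 1.12 ± 0.0808, adjusted p = 2.52e-12) and 1.99-fold for the combination against cisplatin (adjusted p = 2.17e-11). Pola2 and Prim2 rose 2.54- and 2.05-fold with cisplatin and 1.41- and 1.59-fold with AU15330.

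Polymerases delta and epsilon, which extend the strands, differed. Pole, the catalytic subunit of polymerase epsilon, measured 5.87 to 10.7 CPM (median 7.59) in DMSO, 22.7 to 40.5 (median 26.9) with AU15330, 44.97 to 64.6 (median 61.04) with cisplatin and 77.7 to 98.8 (median 83.3) with the combination. No group overlapped with another. Pole rose 7.44-fold with cisplatin (log2 fold change 2.90 ± 0.148, adjusted p = 1.5e-14), 3.76-fold with AU15330 (adjusted p = 7.44e-12) and 1.49-fold for the combination against cisplatin (adjusted p = 0.000388). Pole2, its accessory subunit, rose 2.33-, 2.15- and 1.92-fold in the same comparisons. Of the polymerase delta genes, the catalytic Pold1 rose 2.03-fold with cisplatin (adjusted p = 8.21e-08), with log2 fold changes of 0.05 ± 0.119 with AU15330 and 0.19 ± 0.117 for the combination against cisplatin that did not pass the test (adjusted p = 0.72 and 0.145). Pold2, an accessory subunit, differed from Pold1 with cisplatin and for the combination against cisplatin. It measured 42.96 to 63.98 CPM (median 51.05) in DMSO, 49.5 to 66.8 (median 52.98) with AU15330, 41.8 to 55.9 (median 46.8) with cisplatin and 75.8 to 107 (median 85.1) with the combination. The combination lay above all other libraries, which overlapped among themselves. Pold2 had log2 fold changes of -0.13 ± 0.0988 with cisplatin and 0.09 ± 0.0987 with AU15330 (adjusted p = 0.298 and 0.408) and rose 1.84-fold for the combination against cisplatin (adjusted p = 1.46e-08). Pold3, another accessory subunit, changed by at most 0.19 in these 3 comparisons. It measured 38.1 to 40.5 CPM (median 38.7) in DMSO, 35.5 to 39.4 (median 37.1) with AU15330, 36.7 to 42.2 (median 37.5) with cisplatin and 41.2 to 48.5 (median 43.7) with the combination. Cisplatin overlapped with every other group. Its log2 fold change was -0.02 ± 0.0539 with cisplatin (adjusted p = 0.82, interval -0.13 to 0.09), -0.07 ± 0.05398 with AU15330 (adjusted p = 0.229) and 0.19 ± 0.0537 for the combination against cisplatin (adjusted p = 0.00323).

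The 3 genes of replication protein A, the complex that coats single-stranded DNA, also differed. Rpa2, the middle subunit, measured 9.22 to 16.3 CPM (median 11.98) in DMSO, 14.1 to 24.6 (median 15.1) with AU15330, 27.3 to 38.9 (median 28.8) with cisplatin and 40.96 to 60.9 (median 45.2) with the combination. Libraries with and without cisplatin did not overlap. Rpa2 rose 2.503-fold with cisplatin (log2 fold change 1.32 ± 0.145, adjusted p = 2.79e-08), 1.41-fold with AU15330 (adjusted p = 0.00391) and 1.55-fold for the combination against cisplatin (adjusted p = 0.000247). Rpa1, the large subunit, rose 1.297-fold with cisplatin and 1.39-fold for the combination against cisplatin, and its log2 fold change of 0.14 ± 0.0821 with AU15330 did not pass the test (adjusted p = 0.118), though it did without the libraries numbered 1. Rpa3, the small subunit, measured 11.6 to 19.9 CPM (median 14.8) in DMSO, 11.5 to 15.3 (median 11.95) with AU15330, 12.1 to 17.5 (median 13.7) with cisplatin and 14.8 to 18.7 (median 16.01) with the combination. All of its groups overlapped. Its log2 fold changes of -0.09 ± 0.121 with cisplatin, -0.26 ± 0.121 with AU15330 and 0.21 ± 0.1199 for the combination against cisplatin did not pass the test (adjusted p = 0.536, 0.0592 and 0.127). The combination was 1.29-fold higher than AU15330 alone for Rpa3 (adjusted p = 0.0154), a call lost without the libraries numbered 3 or 5 (adjusted p up to 0.0654). Alternative fits also called Rpa3 lower with AU15330 in 4 of 12 (adjusted p of 0.0172 to 0.0468) and higher for the combination against cisplatin in 1 of 12, the replicate block (adjusted p = 0.0384).

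Fen1, the nuclease that trims Okazaki fragments, measured 12.4 to 22.1 CPM (median 17.8) in DMSO, 42.05 to 59.4 (median 46.7) with AU15330, 50.7 to 83.3 (median 60.6) with cisplatin and 101 to 141 (median 108) with the combination. DMSO lay below and the combination above all other libraries. Fen1 rose 3.502-fold with cisplatin (log2 fold change 1.81 ± 0.128, adjusted p = 9.11e-12), 2.703-fold with AU15330 (adjusted p = 1.47e-10) and 1.79-fold for the combination against cisplatin (adjusted p = 9.77e-07). The exons of Fen1 overlap those of Tmem258 and Gm10143 on the other strand over 2039 of 2422 bases, with the same limit as for Gins2. Smaller overlaps, with that limit, lay in Orc2 (1150 of 3857 bases), Rfc2 (952 of 6303) and Rfc5 (499 of 4669). Mcm7, Orc1, Orc6, Cdc45, Rfc4, Pole and Lig1 had still smaller ones. Lig1, the ligase that seals the fragments, measured 26.8 to 49.1 CPM (median 40.3) in DMSO, 45.5 to 79.4 (median 48.6) with AU15330, 132 to 177 (median 137) with cisplatin and 111 to 149 (median 121) with the combination. Libraries with and without cisplatin did not overlap. Lig1 rose 3.77-fold with cisplatin (log2 fold change 1.91 ± 0.1501, adjusted p = 6.82e-11) and 1.43-fold with AU15330 (adjusted p = 0.00278). For the combination against cisplatin its log2 fold change was -0.24 ± 0.144 and did not pass the test (adjusted p = 0.138). It was called in a fit of those 2 groups alone, at -0.27 with an adjusted p of 0.0129, and in the fit with a replicate block, at -0.24 with an adjusted p of 0.0236.

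Ribonucleotide reductase makes deoxynucleotides from a large subunit, Rrm1, and a small subunit, Rrm2, which in cycling cells is the limiting one. Their mRNAs moved apart. Rrm2 measured 13.97 to 34.3 CPM (median 22.98) in DMSO, 38.9 to 91.9 (median 45.6) with AU15330, 68.2 to 133 (median 77.8) with cisplatin and 137 to 179 (median 150.2) with the combination. DMSO did not overlap with the others, and the combination lay above all. Rrm2 rose 3.72-fold with cisplatin (log2 fold change 1.90 ± 0.225, adjusted p = 1.08e-07), 2.37-fold with AU15330 (adjusted p = 1.76e-05) and 1.79-fold for the combination against cisplatin (adjusted p = 0.00115). Rrm1 measured 126 to 216 CPM (median 147) in DMSO, 69.8 to 143 (median 77.1) with AU15330, 359 to 433 (median 369) with cisplatin and 184 to 259 (median 205) with the combination. Every combination library lay below every cisplatin library, and the AU15330 libraries overlapped with DMSO through replicate 1. Rrm1 rose 2.47-fold with cisplatin (log2 fold change 1.31 ± 0.146, adjusted p = 3.94e-08). It fell by 0.78 on the log2 scale with AU15330 (SE 0.145, adjusted p = 2.89e-05) and by 0.86 for the combination against cisplatin (SE 0.144, adjusted p = 9.49e-06); it was the only one of the 41 genes to be called lower with AU15330 both without and with cisplatin. Tyms, thymidylate synthase, rose 2.74-fold with cisplatin, 2.66-fold with AU15330 and 1.698-fold for the combination against cisplatin (adjusted p = 4.12e-09, 1.72e-09 and 1.73e-05). Rrm1 lies at chr7:102441695-102469771, plus strand, and Rrm2 at chr12:24708241-24714146, plus strand (mm10, GENCODE vM21).

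**Figure D3:**
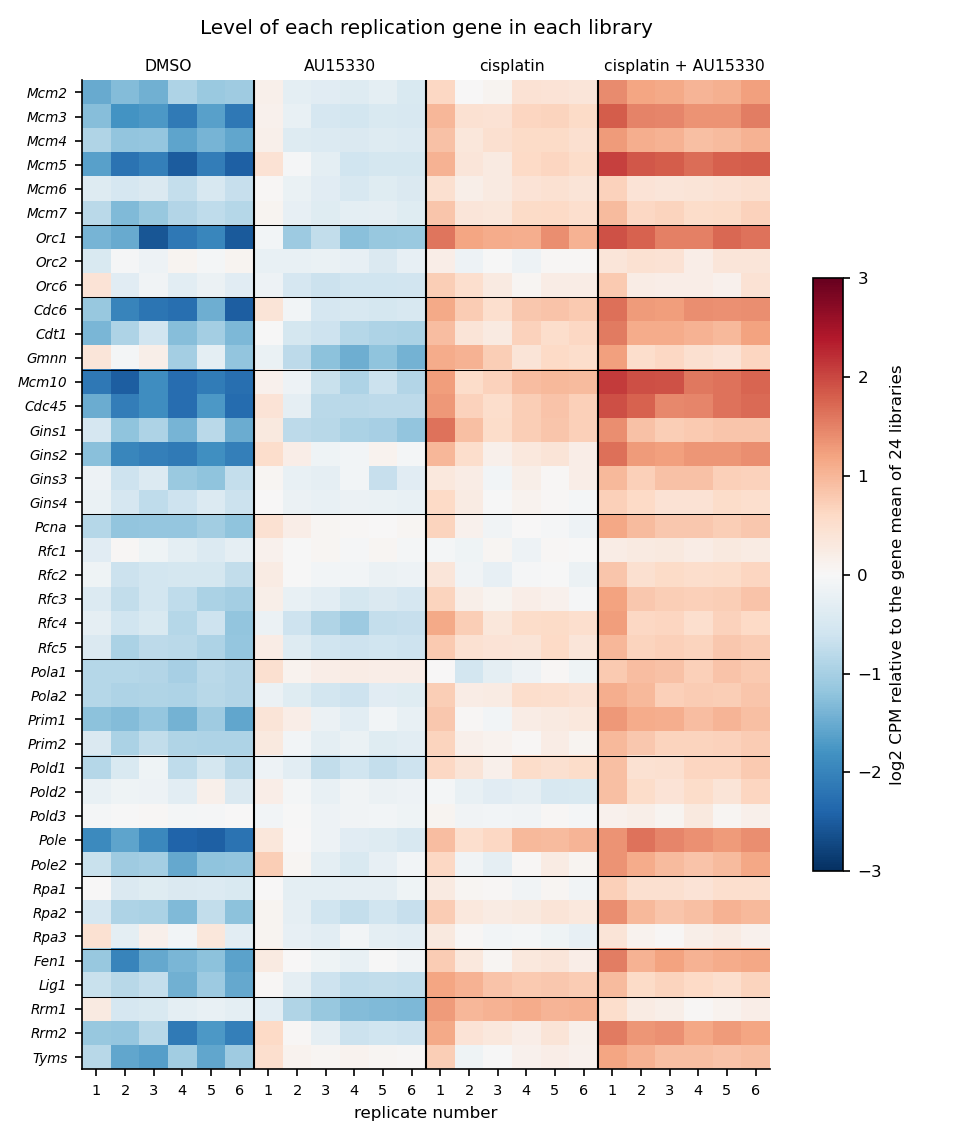
Level of each of the 41 genes (rows, grouped by role) in each of the 24 libraries (columns, by treatment and replicate number), as log2 CPM relative to the mean of that gene over all libraries. Blue is below and red above the mean: most rows go from blue in DMSO to red in the combination, Pold3 and Rpa3 stay near white, and Rrm1 is reddest with cisplatin alone.

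The effect of AU15330 could be measured without and with cisplatin in comparisons that share no library. In 26 of the 41 genes the level was called higher with AU15330 in both settings, in 1 (Rrm1) lower in both, and in 1 (Orc2) lower without and higher with cisplatin. Of all tested genes, 26.9% were called higher in both, 26.6% lower in both and 1.62% lower without and higher with cisplatin. The difference between the effects was tested as an interaction of the 2 drugs. The effect of AU15330 was smaller or more negative with cisplatin than without it for 13 genes and larger for 5, where 33.7% of all tested genes were called, 15.8% with a negative and 17.9% with a positive interaction. The 13 were Mcm3, Mcm4, Mcm5, Mcm7, Cdc6, Mcm10, Gins2, Pcna, Prim1, Pole, Fen1, Lig1 and Tyms, and the 5 were Orc2, Pold2, Pold3, Rpa1 and Rpa3. Pole had the largest interaction: its log2 fold change with AU15330 was 1.91 in the absence and 0.58 in the presence of cisplatin, an interaction of -1.33 ± 0.195 (adjusted p = 9.95e-06). Gins2 and Cdc6 followed with -1.05 ± 0.207 and -1.05 ± 0.248 (adjusted p = 0.000327 and 0.00199). Of the 13, 11 were still called higher for the combination against cisplatin, all but Mcm7 and Lig1. Of the 5, Pold2 had the largest interaction, 0.79 ± 0.139 (adjusted p = 0.000106), followed by Orc2 with 0.56 ± 0.113 (adjusted p = 0.000472), while that of Gmnn, 0.67 ± 0.3297, lay between them and was not called (adjusted p = 0.121). For Rrm1 the interaction was -0.07 ± 0.203, with an interval of -0.49 to 0.35. The median interaction over the 41 genes was -0.14, against 0.01 over all tested genes. Some of these calls were near the threshold: those of Pold3, Rpa1 and Rpa3 were lost in 5, 7 and 7 of 11 alternative fits, and those of Prim1, Mcm3 and Mcm4 in 6, 4 and 3. Negative interactions of Orc1 and Cdc45, not called here (-0.69 ± 0.272 and -0.66 ± 0.263, adjusted p = 0.0501 and 0.0552), were called in 6 and 5 of the 11, DESeq2 among them. Positive interactions of Gmnn and Orc6 were called in 1 of the 11, the fit with a replicate block (adjusted p = 0.0087 and 0.00495). Scaled by total counts, 2 positive interactions (Orc2 and Pold2) were called, and the calls over all tested genes moved from 2313 positive and 2048 negative to 1791 and 2506. Without the libraries numbered 1, 5 interactions were positive and 14 negative.

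**Figure D4:**
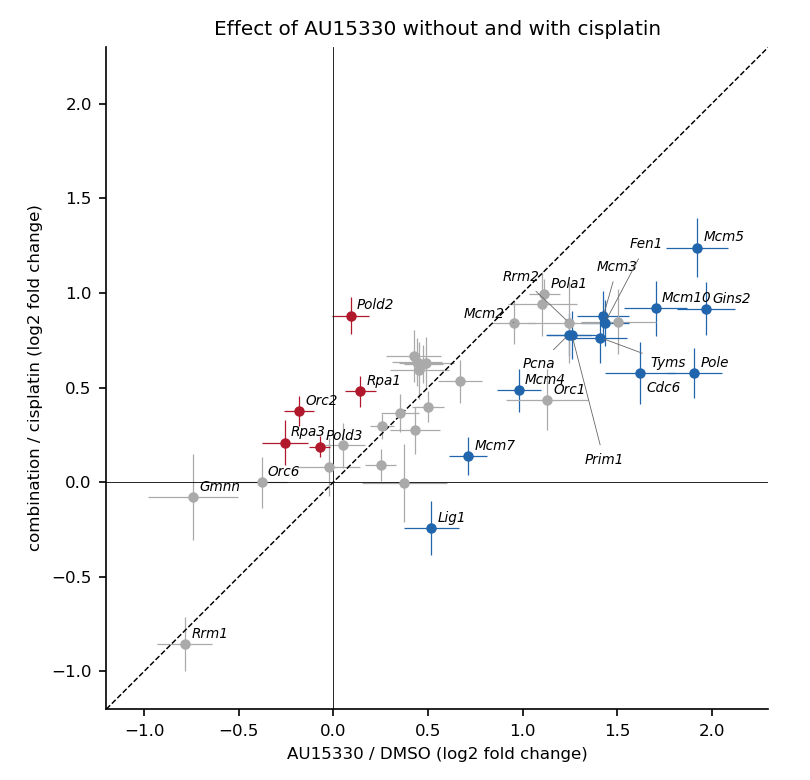
Log2 fold change with AU15330 in cells without cisplatin (x axis, AU15330 against DMSO) and in cells with it (y axis, combination against cisplatin) for the 41 genes, with bars of 1 standard error and a dashed line of equal effects. Blue marks the 13 genes with a negative and red the 5 with a positive interaction: the blue points lie below the line, at the right, and Rrm1 lies near the line at -0.78 and -0.86.

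Because some partners moved apart, the ratio of their counts was taken within each library, which no scaling between libraries can change. These 3 pairs were chosen after their values were seen, because they moved apart, so their ratios are a description with no test. Rrm2 reads per Rrm1 read had a median of 0.125 in DMSO (0.0957 to 0.262), 0.591 with AU15330 (0.538 to 0.658), 0.212 with cisplatin (0.183 to 0.308) and 0.731 with the combination (0.667 to 0.772). The libraries with AU15330 lay above all libraries without it. The mean log2 ratio was 2.06 higher with AU15330 than in DMSO, 1.74 higher with the combination than with cisplatin and 0.61 higher with cisplatin than in DMSO, where the libraries overlapped. Cdt1 reads per Gmnn read, the licensing factor over its inhibitor, had a median of 0.917 in DMSO (0.460 to 1.37), 2.01 with AU15330 (1.75 to 2.33), 1.41 with cisplatin (0.983 to 1.89) and 2.27 with the combination (1.93 to 2.295). The mean log2 ratio was 1.16 higher with AU15330 than in DMSO, 0.67 higher with the combination than with cisplatin and 0.60 higher with cisplatin than in DMSO. Pold1 reads per Pold2 read had medians of 0.665 in DMSO, 0.633 with AU15330, 1.47 with cisplatin and 0.930 with the combination. The mean log2 ratio was 1.16 higher with cisplatin than in DMSO, and the difference of the combination from cisplatin was -0.68 and that of AU15330 from DMSO -0.04.

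**Figure D5:**
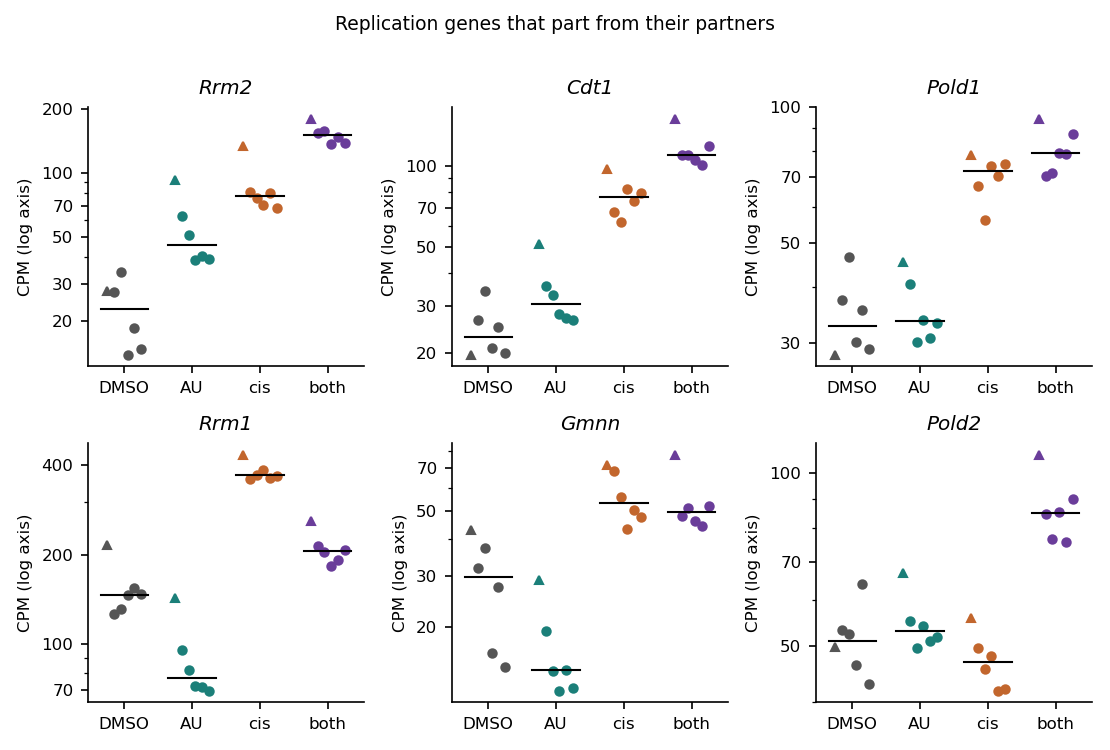
CPM (log axis) of 3 pairs of replication genes in each of 6 libraries per treatment (AU, AU15330; cis, cisplatin; both, the combination), with a line at the median and triangles for the libraries numbered 1. Rrm2 climbs over the 4 treatments while Rrm1 is lowest with AU15330 (median 77.1 CPM) and highest with cisplatin (median 369 CPM).

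Levels were compared between genes only per length, as CPM per kilobase of the principal mRNA in GENCODE vM21. In DMSO the 41 genes spanned a range of 169.8-fold in this measure, from Orc1 at 0.323 ± 0.111 (SD, n = 6) to Mcm6 at 54.8 ± 5.32, followed by Pcna at 48.5 ± 4.91 and Rrm1 at 38.4 ± 8.12. The span was 165.2-fold with AU15330, 38.78-fold with cisplatin and 48.08-fold with the combination, and Pcna led in each of these groups, at 114.9 ± 14.4, 111.9 ± 26.2 and 192 ± 21.9 CPM per kilobase. Orc1 remained at the lower end of the list, at 2.96 ± 0.467 with cisplatin and 3.998 ± 0.449 with the combination. The median gene lay at 10.1 CPM per kilobase in DMSO, 14.3 with AU15330, 25.1 with cisplatin and 26.0 with the combination. GENCODE holds processed pseudogenes of Pcna (2) and Tyms (1), and reads could have been split between these copies by the counting.

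Promoters of the genes were searched for E2F words, since E2F binding is the best known shared feature of replication genes. RefSeq promoter sequences (GRCm38.p6, 250 bases before to 50 after the start) were at hand for 33 of the 41 genes, not for Mcm4, Gmnn, Gins1, Gins2, Gins4, Rfc2, Prim2 and Pole. The words TTTCCCGC, TTTGCCGC, TTTCGCGC and TTTGGCGC, on either strand and overlaps allowed, were found in 14 of the 33 (42.42%), against 4.67% of the 10265 tested genes with a sequence and 2.26% of all 32851 promoters of that length. In 8 of the 14 (Mcm5, Mcm6, Mcm7, Orc1, Cdc6, Gins3, Rfc3 and Pola1) a word lay before the start. The stretches of 3 of them are shown, the 3 in which it also lay outside the annotated gene, with the words in capitals and 20 bases on each side, 5′ to 3′ on the strand of the gene: Mcm5 at chr8:75109336-75109387 on the plus strand, Mcm6 at chr1:128359725-128359835 and Pola1 at chrX:93632266-93632313, both on the minus strand.
Mcm5: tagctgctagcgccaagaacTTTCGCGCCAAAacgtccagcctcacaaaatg
Mcm6: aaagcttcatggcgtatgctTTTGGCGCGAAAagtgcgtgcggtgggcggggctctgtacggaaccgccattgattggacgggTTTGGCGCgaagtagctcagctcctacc
Pola1: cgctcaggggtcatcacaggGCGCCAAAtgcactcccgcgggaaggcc
In Mcm5 and in the first site of Mcm6, words on both strands overlap in a run of 12 bases. Mcm5 rose most and Mcm6 least of the ring genes with cisplatin, so a word was present at both ends of that range. Over the 33 genes the median log2 fold change with cisplatin was 1.36 for the 14 with a word and 1.32 for the 19 without, and with AU15330 it was 0.62 and 0.49. None of the 14 was called lower with AU15330 and 3 of the 19 were (Orc2, Orc6 and Rrm1). The word CCAAT occurred in 22 of the 33 (66.67%) against 43.28% of tested genes, and the words TTTGAA or TTCGAA of the cell cycle homology region in 7 (21.21%) against 16.21%. A word in a promoter is a description of its letters and does not show that a factor binds there.

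Of 34 further replication genes, 23 were higher and 3 lower with cisplatin, 23 and 3 with AU15330, and 25 and 0 for the combination against cisplatin, with median log2 fold changes of 1.22, 0.53 and 0.41. Thus 26, 26 and 25 of the 34 were called, where 51.7%, 73.4% and 68.1% of all tested genes were. Those with AU15330 (26 of 34) and for the combination against cisplatin (25 of 34) were close to these shares. Dscc1, of an alternative clamp loader, rose most with cisplatin (log2 fold change 3.31 ± 0.237, adjusted p = 1.09e-11), and Pold4, the smallest polymerase delta subunit, fell most (log2 fold change -1.23 ± 0.171, adjusted p = 1.3e-06). Uhrf1, which recruits the maintenance DNA methyltransferase to new DNA, rose most for the combination against cisplatin (1.22 ± 0.119, adjusted p = 1.11e-09) and 0 of the 34 fell there (edgeR, also 0 at an unadjusted p under 0.05; DESeq2 was not counted over this list). Of 15 further nucleotide supply genes, 9 were higher and 3 lower with cisplatin, 7 and 3 with AU15330, and 9 and 2 for the combination against cisplatin, against 51.7%, 73.4% and 68.1% of all tested genes. With AU15330 (10 of 15) and for the combination against cisplatin (11 of 15) the calls were near these shares. Shmt1, a folate enzyme that serves thymidylate synthesis, led in all 3, with log2 fold changes of 3.00 ± 0.1396, 4.00 ± 0.1401 and 1.67 ± 0.115. Cad, of pyrimidine synthesis, fell most with cisplatin (log2 fold change -0.61 ± 0.104, adjusted p = 2.32e-05), and Ctps fell most for the combination against cisplatin (-0.40 ± 0.0835, adjusted p = 0.000155).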

How the data were processed

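RNA-seq was available for 24 libraries of ID8 P53 KO cells in 4 groups of 6. Poly(A) RNA was made into directional NEBNext Ultra II libraries and sequenced as single-end reads, and the submitters' processing notes name STAR 2.7.1a, DESeq2 1.36.0 and mm10. The deposited table holds raw counts per gene symbol made by the authors from these reads, with 2 lanes per library, which were summed. The counting tool, its strand setting and the annotation are not given in the sources used here.

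Genes were kept with filterByExpr (minimum count 10) and fitted in edgeR 4.0.16 (R 4.3.3) with TMM factors and 1 mean per group over all 24 libraries (20 residual degrees of freedom). Contrasts were tested by the quasi-likelihood F test, and p-values were adjusted by Benjamini-Hochberg over all 12941 tested genes at 0.05. Standard errors (SE) are the log2 fold change divided by the root of F, and intervals are 95% intervals. Log CPM used a prior count of 2. Ratios of read counts used a pseudocount of 0.5. The scripts were tested on simulated counts. Single-library depth of 17592588 to 25260009 counts puts a floor of 3 counts at 0.120 to 0.186 CPM, which covers counting error only.

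The members and gene lists were chosen with earlier results of these data known. Values per group were given in full for the genes with the largest and smallest absolute log2 fold change with cisplatin in each of 10 roles and for every gene called against the direction of most. Of the other lists, the genes with the largest rise and fall with cisplatin and for the combination against cisplatin were named. Cdt1, Cdc45, Pcna and Pold2 in full, and Shmt1, E2f8, Tfdp2 and Rb1 with AU15330, were added after their values were seen. Alternatives were DESeq2 1.42.0, DESeq2 size factors, total counts, no low-count filter, a fold above 1.5, only 2 groups in the fit, a replicate block and leaving out each replicate number. Replicate numbers are only labels. Over all tested genes, same-numbered libraries deviated together (correlation over 0.1 in every pair) between AU15330 and the combination alone, while for the replication genes the libraries numbered 1 were high in all 4 groups.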

Additional observations from a re-analysis of the deposited data

Results flagged for a closer look

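A library far from the other 5 of its group was seen in 58 of the 168 sets of 6 values examined (41 genes and their sum in 4 groups), where the gap to the nearest library, as a share of the range of the group, exceeded Dixon's 95% critical value. Chance flags about 1 in 20 such sets, or 8.4 of them. In 57 of the 58 the distant library was the highest one and carried the number 1. The exception was Orc2 with AU15330, where replicate 5 lay lowest, at a gap of 0.733 of the range. The sum of the 41 genes was among them with AU15330 (0.674), cisplatin (0.717) and the combination (0.719). As shares of the range, the gaps in DMSO were 0.739 for Orc6, 0.74 for Gins2, 0.698 for Rfc2, 0.656 for Prim2, 0.849 for Rpa1 and 0.687 for Rrm1. As shares of the range, the gaps with AU15330 were 0.767 for Mcm2, 0.927 for Mcm4, 0.76 for Mcm7, 0.653 for Orc1, 0.746 for Orc6, 0.629 for Cdt1, 0.657 for Cdc45, 0.815 for Gins1, 0.843 for Gins4, 0.634 for Pcna, 0.663 for Rfc2, 0.638 for Rfc3, 0.776 for Rfc5, 0.74 for Pola1, 0.6254 for Prim2, 0.668 for Pold2, 0.668 for Pole2, 0.652 for Rrm1 and 0.869 for Tyms. As shares of the range, the gaps with cisplatin were 0.639 for Mcm3, 0.64 for Cdc45, 0.756 for Gins1, 0.64 for Gins2, 0.725 for Pcna, 0.665 for Rfc2, 0.725 for Rfc3, 0.635 for Prim1, 0.767 for Prim2, 0.753 for Rpa2, 0.629 for Fen1, 0.662 for Rrm1, 0.804 for Rrm2 and 0.681 for Tyms. As shares of the range, the gaps with the combination were 0.652 for Mcm3, 0.703 for Mcm6, 0.659 for Mcm7, 0.674 for Cdc6, 0.649 for Cdt1, 0.775 for Gmnn, 0.814 for Gins1, 0.656 for Gins2, 0.758 for Rfc3, 0.788 for Rfc4, 0.63 for Rfc5, 0.749 for Rpa1, 0.672 for Rpa2, 0.712 for Fen1 and 0.663 for Lig1.

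The effect of AU15330 on 18 genes differed between cells without and with cisplatin by the interaction test of the edgeR fit. On the log2 scale the interaction was -0.55 for Mcm3, -0.496 for Mcm4, -0.683 for Mcm5, -0.573 for Mcm7, -1.05 for Cdc6, -0.784 for Mcm10, -1.05 for Gins2, -0.465 for Pcna, -0.483 for Prim1, -1.33 for Pole, -0.593 for Fen1, -0.761 for Lig1 and -0.648 for Tyms, the 13 genes with a smaller or more negative effect in the presence of cisplatin. It was 0.556 for Orc2, 0.788 for Pold2, 0.26 for Pold3, 0.337 for Rpa1 and 0.465 for Rpa3, the 5 genes with a larger effect there.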

How the results depend on the processing

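Of 2911 single-gene values recomputed (12 alternatives per gene, 11 for the interaction), 2791 kept their direction and their side of the threshold, 63 lost the call, 29 gained one and 28 changed sign. None of the values that changed sign was called, and the cause of such changes was not tested. The number of genes higher with cisplatin ran from 29 to 37 and that for the combination against AU15330 from 28 to 41, the lowest in each case where a fold above 1.5 was required. With that requirement 17 genes were higher and 0 lower with AU15330, 10 were higher for the combination against cisplatin, and 0 positive and 1 negative interaction remained. Under total counts the median log2 fold change of the 41 genes was 0.63 with AU15330 and 1.84 for the combination against DMSO, 2 genes were lower with AU15330 and 2 interactions were positive, and 2 were positive without the low-count filter. The combination against cisplatin gave 2 lower genes with 2 groups in the fit and 2 with the replicate block, Lig1 being the added gene. Leaving out a replicate number gave 1 to 5 genes lower with AU15330 (1 without replicate 3, where Orc2, Orc6 and Gmnn lost their calls) and 2 to 5 positive interactions, and it ended the interaction calls of Mcm5 (without replicate 2), Pcna (2 or 4) and Tyms (5), and the call of Rpa3 for the combination against AU15330 (3 or 5).

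Values that changed sign under total counts were, with cisplatin, Pold3 at 0.0588; with AU15330, Rfc4 at 0.109 and Pold3 at 0.0575; for the combination against cisplatin, Orc6 at 0.0605 and Gins1 at 0.0529; and for the interaction, Gins4 at -0.0555 and Rfc1 at -0.0283. The interaction of Gins4 was -0.0142 with DESeq2, -0.0159 with its size factors and -0.00156 without the filter. On leaving out a replicate number, the log2 fold change with cisplatin ran over -0.0426 to 0.14 for Orc2 and -0.0654 to 0.0308 for Pold3. With AU15330 it ran over -0.106 to 0.0634 for Rfc4, -0.103 to 0.206 for Pold1, -0.00261 to 0.187 for Pold2 and -0.0992 to 0.062 for the log2 Pold1/Pold2 ratio. For the combination against cisplatin it ran over -0.0559 to 0.0545 for Orc6, -0.175 to 0.0135 for Gmnn and -0.0600 to 0.0257 for Gins1. The interaction ran over -0.189 to 0.0269 for Mcm2, -0.0588 to 0.317 for Cdt1, -0.0494 to 0.0371 for Gins4, -0.0481 to 0.0815 for Rfc1, -0.0446 to 0.177 for Rfc4 and -0.0574 to 0.24 for Pold1.

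Libraries of different groups share replicate numbers, and the deviations of same-numbered libraries over all tested genes correlated above 0.1 in 23 of 36 pairs (-0.133 to 0.483), in all 6 pairs for AU15330 and the combination but in no other pair of groups. The numbers were therefore taken as pairs only between AU15330 and the combination, where the block changed no call of the 41 genes. In 1 to 4 of 6 cases per pair of groups a library correlated best with its own number. With the replicate block, 37 genes were higher and 0 lower with cisplatin, 32 and 4 with AU15330, 32 and 2 for the combination against cisplatin (Gins1 at 0.0191), 41 and 0 against AU15330, 40 and 0 against DMSO, and 7 interactions were positive and 15 negative. Calls gained were Gins1, Rpa1 and Rpa3 with AU15330 (adjusted p = 0.0139, 0.0101 and 0.0172), Rfc5, Rpa3 and Lig1 for the combination against cisplatin (0.00266, 0.0384 and 0.0236) and the interactions of Orc1, Cdc45, Orc6 and Gmnn (0.0127, 0.00649, 0.00495 and 0.0087), and the call of Orc2 with AU15330 was lost (0.0545).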

Other observations

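Genes of the E2F transcription factors with their DP partners, of the pocket proteins that bind them, and of Mybl2 and the MuvB core subunits Lin9 and Lin54 changed in both directions. Together they set the transcription of many replication genes. Of these 16 genes, 11 were higher and 2 lower with cisplatin (median log2 fold change 0.56), 10 and 4 with AU15330 (0.38), and 7 and 2 for the combination against cisplatin (0.23). For the combination 9 were higher and 1 lower against AU15330 and 11 and 4 against DMSO, and the interaction was positive for 1 and negative for 7. Over all tested genes 51.7% were called with cisplatin, 73.4% with AU15330, 68.1% for the combination against cisplatin, 41.7% against AU15330 and 73.3% against DMSO, and 33.7% for the interaction. Mybl2, which joins the MuvB core in cycling cells, rose most with cisplatin (log2 fold change 2.65 ± 0.1697, edgeR adjusted p = 1.37e-12), where E2f5 fell most (-0.57 ± 0.105, adjusted p = 6.15e-05). With AU15330, E2f8, an atypical repressor of the family, rose by 1.70 ± 0.232, and Tfdp2, which pairs with E2F proteins, and Rb1, the retinoblastoma protein gene, had log2 fold changes of -1.14 ± 0.0929 and -1.08 ± 0.106. Both were also lower for the combination against cisplatin (-1.28 ± 0.0932 and -0.86 ± 0.106), while Rbl1, another pocket protein gene, was higher (0.68 ± 0.0808, adjusted p = 3.79e-08).

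Rb1 measured 38.7 to 60.4 CPM (median 44.9) in DMSO, 18.8 to 24.8 (median 22.1) with AU15330, 37.5 to 52.01 (median 43.8) with cisplatin and 20.8 to 30.2 (median 23.1) with the combination. Its libraries with AU15330 lay below all libraries without it.

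Of 8 genes of replication stress signalling, 7 were tested (not Atrip). With cisplatin 4 were higher and 1 lower, with AU15330 5 and 0, and for the combination 7 and 0 against cisplatin, 3 and 0 against AU15330 and 6 and 0 against DMSO, with 1 positive and 1 negative interaction. Over all tested genes 51.7% were called with cisplatin, 73.4% with AU15330, 68.1%, 41.7% and 73.3% for the combination in the same order, and 33.7% for the interaction. The shares with AU15330 (5 of 7) and for the combination against AU15330 (3 of 7) were close to these, and that of the interaction (2 of 7) lay below. Chek1, the kinase that acts downstream of ATR, rose most with cisplatin (2.40 ± 0.143, adjusted p = 3.6e-13) and Rad1 fell (-0.25 ± 0.0774, adjusted p = 0.00784). Rad9a, which forms a clamp with Rad1 and Hus1, rose most for the combination against cisplatin (0.92 ± 0.0556, adjusted p = 7.42e-14).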
